A study of Astyanax mexicanus with 12 samples.

Results

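Among the miRNAs of 24 hpf *Astyanax mexicanus* embryos, 40 set the Tinaja cave morph apart from every other morph examined, 20 of them by a high level and 20 by a low level. They were picked from a deposited list of 683 mature miRNAs by their measured levels. Levels are CPM, the count of a miRNA per 1000000 counts of its library. The 3 libraries of a morph were averaged, and 0.5 CPM was added before taking log2. The 503 miRNAs with a mean raw count of 10 or more over the 12 libraries were then kept. A miRNA belongs to the set if the largest gap between neighbouring morphs on this scale was 0.7 or more and left Tinaja alone at the top or at the bottom. The same gap rule left Pachón alone for 30 miRNAs, Molino alone for 83, and surface fish alone for 37. A further 57 split the morphs 2 against 2, and 256 had no gap of 0.7. Since the levels of all libraries chose the members, their differences between morphs are given below as descriptions. Calls from a test over all miRNAs are counted among the members only beside the share or number called among all miRNAs tested. Nothing is read from them.

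Small RNA was sequenced from wild-type whole embryos of the Tinaja, Pachón, and Molino cavefish and of the river-dwelling surface fish, all at 24 h post fertilization and without any treatment, with 3 libraries per morph. The paper's methods give the number of embryos collected for each morph but none for a library. How embryos were divided among the libraries is not given in the sources used here, so the spread between libraries may be technical. Total counts on the listed miRNAs lay between 7565642 and 14673376 in Tinaja, 10035615 and 15279059 in Pachón, 7683993 and 8275406 in Molino, and 5539157 and 8537696 in surface fish. A total of 3 counts over the libraries of a morph, taken as the upper limit that a count of 0 allows, equals 0.0867 CPM in Tinaja, 0.0806 CPM in Pachón, 0.125 CPM in Molino, and 0.145 CPM in surface fish. Limits and intervals of this kind cover counting error only, since the reads carry no molecular identifiers and copies of a molecule cannot be recognised. They take no account of the choice of members by these same counts, so they are descriptions and not tests. In whole embryos, fewer cells that make a miRNA and less of it per cell cannot be told apart.

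A miRNA is cut from a hairpin precursor by Drosha in the nucleus and by Dicer in the cytoplasm, and one strand is loaded into an Argonaute protein. The bases near the 5′ end of that strand, the seed, pair with sites in target mRNAs, mostly in their 3′ UTRs, and the targets are translated less or degraded. In fish embryos, miRNAs are known for clearing maternal mRNAs and for shaping muscle, brain, and sensory organs. The names used here, such as astmex-miR-259, carry serial numbers given by the authors for this species. Whether these numbers correspond to those of zebrafish or human miRNAs was not checked, so no known function is attached to a member from its name. The paper reports miRBase hits for nearly all of its miRNAs, which were not used here. Mature sequences, hairpins, and genomic positions were not analysed here.

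The clearest member was astmex-miR-259, which was present in Tinaja and close to absent from every other morph. Its level was 58.3, 57.4, and 69.5 CPM in the Tinaja libraries, against 0.168, 0, and 0.0996 CPM in Pachón. These Pachón values stand for 3 reads in all, and no read was counted in any Molino or surface fish library. The summed Tinaja level was 749 times the Pachón level, with an exact 95% binomial interval of 256 to 3637 that covers counting error only. The same counts chose this miRNA, which passed the minimum mean count through its Tinaja reads alone. The level in Tinaja was at least 493-fold higher than in Molino and at least 425-fold higher than in surface fish. No other member had 3 counts or fewer in each of the 9 libraries outside Tinaja.

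A second group of high members combined a clear Tinaja level with traces elsewhere. For astmex-miR-285 the Tinaja libraries held 35.0, 29.6, and 32.0 CPM, against 0.252, 0.327, and 0.498 CPM in Pachón, 3.90, 0.749, and 1.69 CPM in Molino, and 0.234, 1.52, and 0 CPM in surface fish. All Tinaja libraries were thus far above the rest, and the mean in Tinaja was 15.2 times that in Molino, the nearest morph. The Molino and surface fish libraries scattered widely among themselves, as 1 surface fish library had no read and another had 10. astmex-miR-408 was lower throughout, with 8.58, 9.47, and 10.7 CPM in Tinaja and 0.335, 0.524, and 1.20 CPM in Pachón. It had no read in Molino and 1 read in surface fish, so that Tinaja was at least 76.6-fold higher than Molino and 14.0-fold higher than Pachón. Only Pachón shared a low level of this miRNA in every library.

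astmex-miR-414 and astmex-miR-531 had the same shape at lower counts, whereas astmex-miR-404 was counted at low levels in every other morph. astmex-miR-414 stood at 4.18 ± 1.32 CPM in Tinaja, against 0.0279 ± 0.0484 CPM in Pachón, 0.334 ± 0.144 CPM in Molino, and 0.203 ± 0.352 CPM in surface fish (SD, n = 3 each). Pachón had a single read of it, whereas every Molino library had at least 2. astmex-miR-531 averaged 3.73 ± 1.13 CPM in Tinaja, 0.433 ± 0.352 CPM in Pachón, 0.0819 ± 0.0709 CPM in Molino, and 0.0390 ± 0.0676 CPM in surface fish (SD, n = 3 each). Here the nearest morph was Pachón, and Molino and surface fish had 2 reads and 1 read. astmex-miR-404 was detected in all 12 libraries, at 8.58, 6.54, and 11.0 CPM in Tinaja, 1.43, 1.11, and 1.40 CPM in Pachón, 0.521, 0.873, and 1.21 CPM in Molino, and 0.586, 0.305, and 0.181 CPM in surface fish. Its mean in Tinaja was 6.63 times that in Pachón and 24.4 times that in surface fish, which had the lowest mean of the morphs.

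In astmex-miR-290 and astmex-miR-345 the nearest morph was surface fish. astmex-miR-290 measured 25.6, 22.5, and 36.5 CPM in Tinaja, 1.84, 3.08, and 2.89 CPM in Pachón, 2.86, 1.25, and 1.81 CPM in Molino, and 5.62, 8.08, and 4.51 CPM in surface fish. The other cave morphs thus lay below surface fish and Tinaja above it, with Tinaja 4.65 times surface fish and 14.3 times Molino. astmex-miR-345 had 12.1, 8.38, and 10.6 CPM in Tinaja, against 1.50 to 2.93 CPM in the other 9 libraries. The ratio of the Tinaja mean to the surface fish mean was 3.89. astmex-miR-266, named after its values were seen, followed the same order of Tinaja and surface fish: its means were 40.7 ± 6.08 CPM in Tinaja, 4.18 ± 1.15 CPM in Pachón, 10.7 ± 0.966 CPM in Molino, and 14.5 ± 2.67 CPM in surface fish (SD, n = 3 each). Of the high members it had the widest spread among the other morphs, 1.68 on the log2 scale, more than its gap of 1.45.

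Of the 4 most abundant high members, astmex-miR-259 is described above and the other 3 differed from the remaining morphs by less. astmex-miR-127 had 58.0, 50.1, and 67.3 CPM in Tinaja, 19.5, 15.4, and 19.8 CPM in Pachón, 23.6, 24.1, and 17.3 CPM in Molino, and 19.7, 23.2, and 22.6 CPM in surface fish. The libraries of the other morphs overlapped one another, and the Tinaja mean was 2.68 to 3.20 times theirs. astmex-miR-121 reached 57.0, 56.3, and 92.3 CPM in Tinaja, against 20.1, 13.5, and 21.1 CPM in Pachón, 32.7, 27.2, and 26.5 CPM in Molino, and 10.9, 6.25, and 11.7 CPM in surface fish. Unlike astmex-miR-127, it formed separate levels in all morphs, with surface fish lowest and no overlap between the libraries of any pair of morphs. astmex-miR-119 had 39.0, 37.1, and 51.4 CPM in Tinaja, 21.0, 21.3, and 25.5 CPM in Pachón, 17.8, 14.6, and 14.0 CPM in Molino, and 22.4, 26.5, and 18.6 CPM in surface fish. The Tinaja mean of astmex-miR-119 was 1.88 times the Pachón mean and 1.89 times the surface fish mean.

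**Figure D1:**
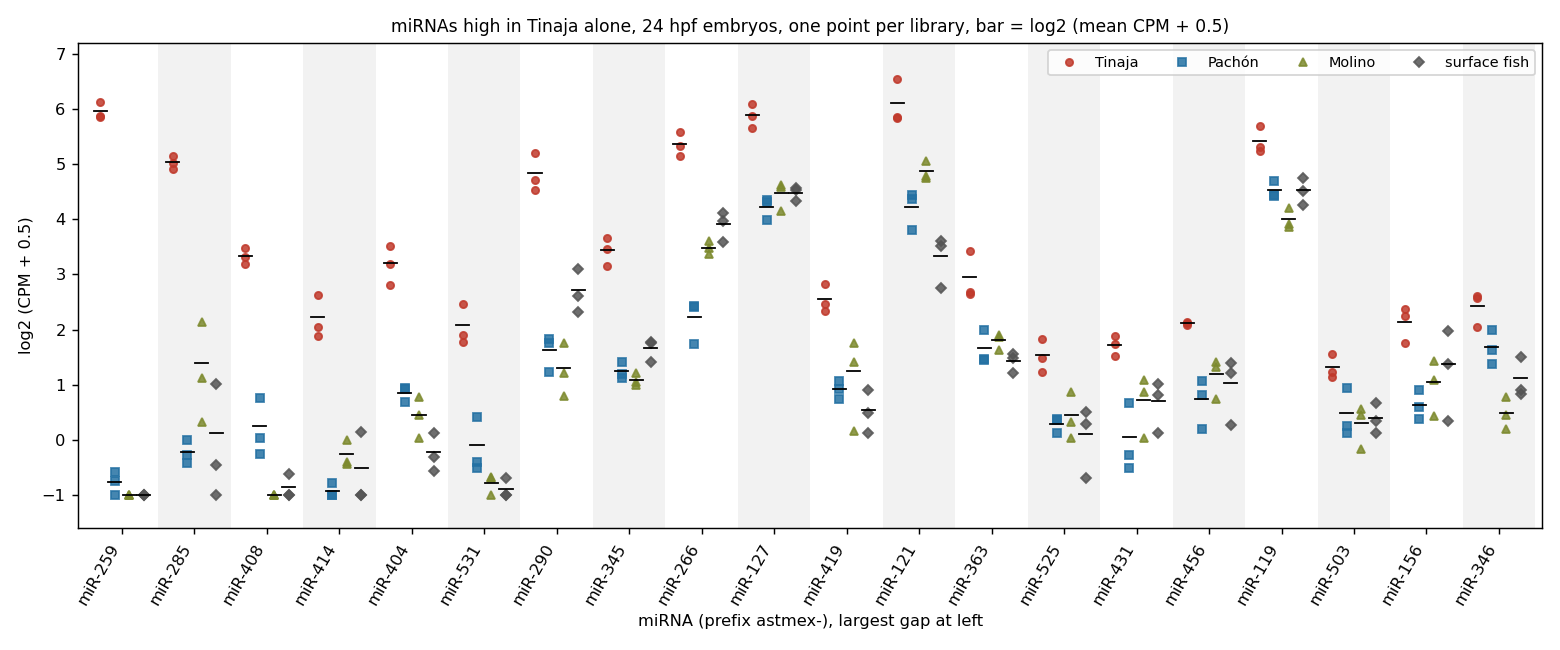
Levels of the 20 miRNAs high in Tinaja alone, as log2 (CPM + 0.5) on the vertical axis; each point is 1 library, the black bars are log2 of the morph mean plus 0.5, and miRNAs run from the largest gap (6.72, miR-259) at the left to the smallest (0.73, miR-346) at the right. In 19 of the 20 all Tinaja points lie above the 9 other points, and in miR-156 a surface fish library reaches between them.

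The remaining high members were astmex-miR-419, miR-363, miR-525, miR-431, miR-456, and miR-503, besides astmex-miR-266 above and astmex-miR-156 and miR-346 below. Together with astmex-miR-266 these 7 had gaps of 0.83 to 1.45 and mean levels of up to 40.7 CPM in Tinaja, against 0.539 to 14.5 CPM in the other morphs. In each of the 7 all Tinaja libraries lay above the other 9. The members just inside the threshold were astmex-miR-156, with a gap of 0.77, and astmex-miR-346, with a gap of 0.73. astmex-miR-156 was the only one of the 40 members whose Tinaja libraries overlapped the others: they held 4.69, 2.86, and 4.23 CPM, and 1 surface fish library held 3.43 CPM. Just outside the threshold, astmex-miR-102 and astmex-miR-151 had gaps of 0.68 and 0.59. astmex-miR-102 had 140.9, 127.1, and 166.0 CPM in Tinaja and between 76.6 and 98.5 CPM in the other 9 libraries, so it missed the rule although its libraries did not overlap.

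On the low side, astmex-miR-278 and astmex-miR-490 had no read in any Tinaja library. astmex-miR-278 was present in all other morphs, at 7.29, 6.54, and 7.87 CPM in Pachón, 18.2, 14.8, and 19.1 CPM in Molino, and 41.0, 41.8, and 35.2 CPM in surface fish. Its level in Tinaja was therefore at least 83.5-fold lower than in Pachón, at least 200.5-fold lower than in Molino, and at least 453.5-fold lower than in surface fish. The morphs formed steps without overlap, and all cave morphs lay below surface fish. astmex-miR-490 was scarcer, with 25 to 31 reads per Pachón library, 24 to 29 per Molino library, and 8 to 14 per surface fish library. The absence of reads in Tinaja makes it at least 16.5-fold lower there than in surface fish, the nearest morph. The 3 libraries together held 34600155 counts in Tinaja, 37241477 in Pachón, 23973711 in Molino, and 20637474 in surface fish.

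astmex-miR-224, astmex-miR-407, astmex-miR-514, and astmex-miR-522 were close to absent from Tinaja, with 7, 1, 1, and 4 reads over its libraries. astmex-miR-224 had 0.324, 0.136, and 0.132 CPM in Tinaja, 11.5, 9.23, and 7.27 CPM in Pachón, 80.7, 85.7, and 81.4 CPM in Molino, and 34.6, 37.8, and 39.0 CPM in surface fish. Its mean was 47.3-fold lower in Tinaja than in Pachón and 419-fold lower than in Molino, and it had the widest spread among the other morphs of all members, 3.08 on the log2 scale. astmex-miR-407 was more even outside Tinaja, with means of 4.65 ± 0.741 CPM in Pachón, 5.31 ± 1.56 CPM in Molino, and 2.94 ± 0.0884 CPM in surface fish (SD, n = 3 each). From its single Tinaja read, the summed surface fish level was 102 times the Tinaja level, with an exact 95% interval of 17.7 to 4105 for counting error. astmex-miR-514 also had a single read in Tinaja, and the corresponding ratio to Molino, its nearest morph, was 30.3 with an interval of 4.87 to 1253. The Molino libraries ranged from 2 to 11 reads of it, a spread that the counting interval does not cover. astmex-miR-522 had 0.162, 0, and 0.264 CPM in Tinaja, against 0.762 to 2.59 CPM over the other 9 libraries.

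astmex-miR-298, astmex-miR-294, and astmex-miR-339 were low in Tinaja but still counted in each of its libraries. astmex-miR-298 had 0.809, 0.204, and 0.661 CPM in Tinaja, 15.9, 11.1, and 14.6 CPM in Pachón, 13.8, 10.2, and 11.7 CPM in Molino, and 4.69, 5.94, and 7.04 CPM in surface fish. It was 10.6-fold lower in Tinaja than in surface fish, while Pachón and Molino overlapped each other and lay above surface fish. astmex-miR-294 had 1.13, 1.84, and 1.32 CPM in Tinaja and between 6.51 and 13.0 CPM elsewhere, a 5.35-fold lower mean than in Molino. Its surface fish libraries overlapped those of both Pachón and Molino, and the means of these morphs spread over 0.52 on the log2 scale. astmex-miR-339 had 1.94, 1.70, and 3.57 CPM in Tinaja, 11.0, 9.49, and 11.1 CPM in Pachón, 16.4, 19.2, and 17.5 CPM in Molino, and 11.4, 11.1, and 12.6 CPM in surface fish. Its Tinaja mean was 4.37-fold lower than that of Pachón, the nearest morph.

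**Figure D2:**
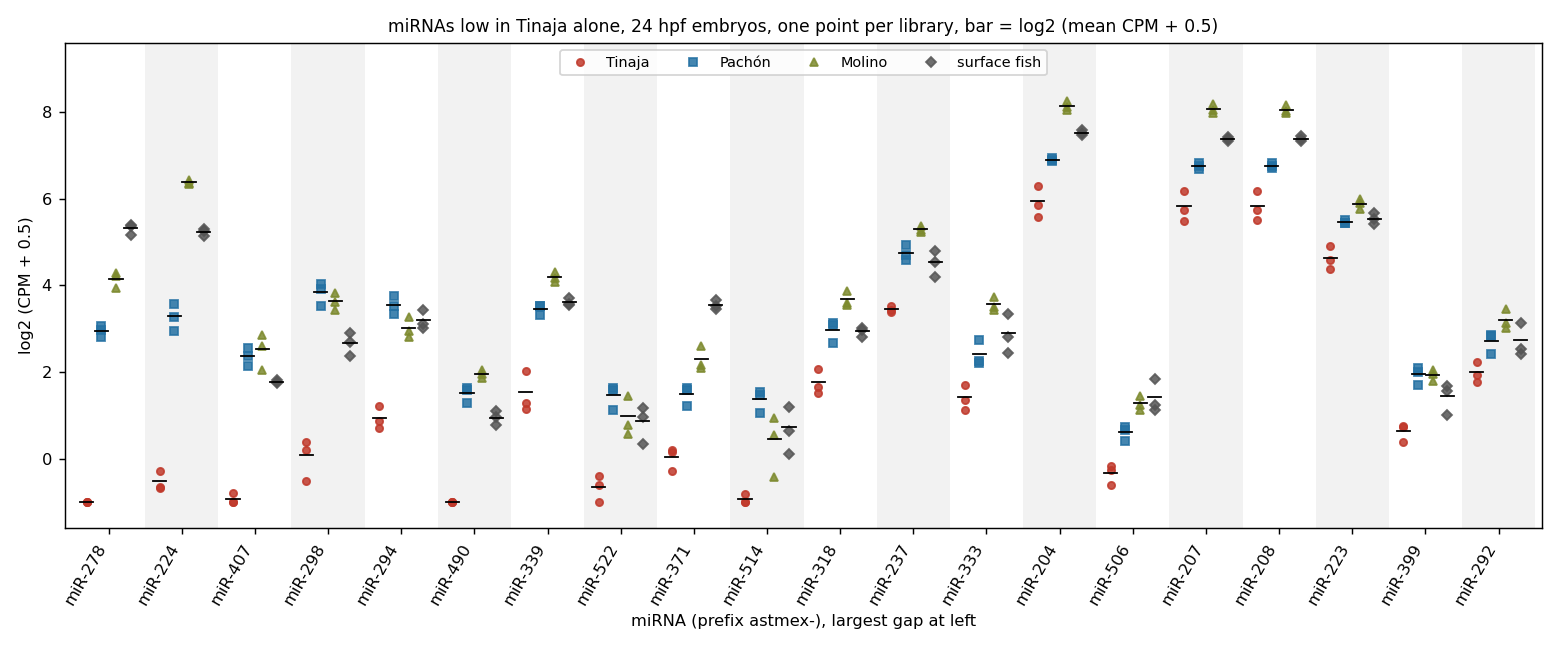
Levels of the 20 miRNAs low in Tinaja alone, drawn as for the high ones, with log2 (CPM + 0.5) on the vertical axis and 1 point per library. In all 20 the Tinaja points lie below the 9 other points; miR-278 and miR-490 sit at the bottom of the axis in Tinaja because no read was counted.

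The most abundant low members were astmex-miR-204, astmex-miR-207, and astmex-miR-208, the only members with a mean raw count of at least 1000. astmex-miR-204 had 57.8, 47.6, and 78.2 CPM in Tinaja, 118, 116, and 123 CPM in Pachón, 304, 276, and 263 CPM in Molino, and 190, 182, and 178 CPM in surface fish. Every morph formed its own level, in the order Molino, surface fish, Pachón, and Tinaja, and the mean in Tinaja was 1.94-fold lower than in Pachón and 4.59-fold lower than in Molino. Within Tinaja the libraries differed more than within Pachón, with SDs of 15.6 and 3.65 CPM. astmex-miR-207 and astmex-miR-208 had nearly the same profile. The count of astmex-miR-207 was 0.988 to 1.02 times that of astmex-miR-208 in every library, and that of astmex-miR-204 was 1.05 to 1.12 times that of astmex-miR-208. In a search of the 239 miRNAs that averaged 100 counts or more and had reads in every library, these were the only 3 pairs whose count ratio stayed within a factor of 1.1 over all libraries. Because reads of similar mature sequences can be counted on several precursors, and sequences were not analysed here, these miRNAs cannot be taken as separate measurements. astmex-miR-223, the next in abundance, had 20.3, 23.4, and 29.5 CPM in Tinaja, against 42.7 to 44.8 CPM in Pachón, 54.0 to 63.3 CPM in Molino, and 42.0 to 50.2 CPM in surface fish. Its mean was 1.78-fold lower in Tinaja than in Pachón.

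**Figure D3:**
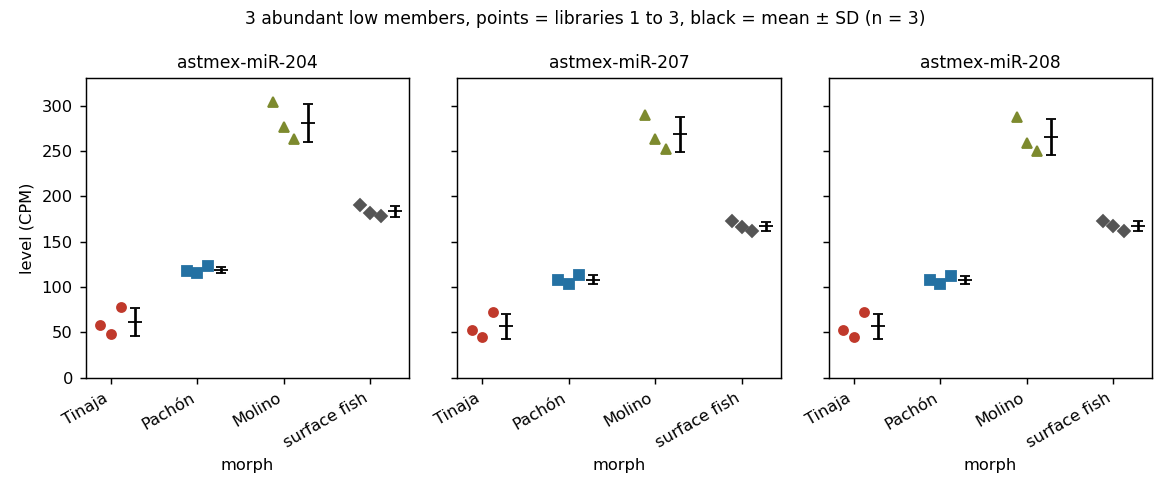
Levels of astmex-miR-204, astmex-miR-207, and astmex-miR-208 in CPM on a linear axis from 0; points are libraries 1 to 3 of each morph, and black marks with bars are the mean ± SD (n = 3). The same 4 steps, with Tinaja lowest and Molino highest, recur in each panel, since the counts of these miRNAs kept nearly one ratio over all libraries.

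The other low members were astmex-miR-371, miR-318, miR-237, miR-333, and miR-506, with gaps of 0.94 to 1.44, mean levels of at least 0.300 CPM in Tinaja, and 1.04 to 38.9 CPM in the other morphs. Named after its values were seen, astmex-miR-371 had 0.324, 0.613, and 0.661 CPM in Tinaja, 2.60, 1.83, and 2.49 CPM in Pachón, 5.60, 3.74, and 3.99 CPM in Molino, and 11.0, 10.5, and 12.1 CPM in surface fish. It shared with astmex-miR-278 and astmex-miR-506 the order surface fish, Molino, Pachón, and Tinaja, so that in these 3 of the 20 low members all cave morphs averaged less than surface fish. Among the 20 high members, 6 had all cave morphs above surface fish. The members just inside the threshold were astmex-miR-399 and astmex-miR-292, with gaps of 0.81 and 0.72. astmex-miR-292 had 3.32, 4.23, and 2.91 CPM in Tinaja and 4.87 to 10.4 CPM elsewhere, a narrow separation. Just outside were astmex-miR-440 and astmex-miR-240, with gaps of 0.69 and 0.68. In astmex-miR-440 a single Tinaja library stood low, with 1.70, 1.23, and 0.132 CPM, whereas in astmex-miR-240 all 3 did, with 23.2, 21.3, and 25.9 CPM against 34.6 to 42.6 CPM elsewhere.

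The morph nearest to Tinaja was not the same throughout. Among the high members it was Molino in 8, Pachón in 7, and surface fish in 5. Among the low members it was Pachón in 11, surface fish in 7, and Molino in 2. Some of these were near ties. The means in Pachón and surface fish were 22.6 and 22.5 CPM for astmex-miR-119 and 6.07 and 6.18 CPM for astmex-miR-292. The nearest morph was not counted over the 503, so nothing is read from these numbers. Molino had the highest mean in 12 of the 20 low members, and over all 503 miRNAs it was the highest of the 3 morphs other than Tinaja in 192, or 38.2%. The order Molino, surface fish, Pachón, and Tinaja occurred in 8 low members, of which astmex-miR-204, miR-207, and miR-208 are 3. These 3, which cannot be taken as separate measurements, are also among the 12 with Molino highest and the 11 with Pachón nearest. The gap to Tinaja exceeded the whole spread of the other morphs in 17 high and 15 low members. The rule requires that gap to be the largest, and the same count was not taken over the 503, so nothing is read from it. The spread of the other morphs had a median of 0.69 on the log2 scale in the high members and 0.86 in the low members, beside 0.95 over the 503. In a member every gap among the other morphs is smaller than the gap to Tinaja. The selection thus bears on these medians, and nothing is read from them.

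Added together, the high members had 401 ± 66.1 CPM in Tinaja, 81.8 ± 9.99 CPM in Pachón, 95.5 ± 9.58 CPM in Molino, and 89.4 ± 6.72 CPM in surface fish (SD, n = 3 each). The low members added up to 224.5 ± 48.3 CPM in Tinaja, 493 ± 20.6 CPM in Pachón, 1103 ± 62.5 CPM in Molino, and 731.8 ± 15.2 CPM in surface fish (SD, n = 3 each). Each set thus took up a small part of a library, at most 0.117% for the low members. The low sum was made up largely of astmex-miR-204, miR-207, and miR-208. These 3 cannot be taken as separate measurements, so the low sum, its SD, and its share may count the same reads more than once. The members were mostly scarce, with 28 of 40 (70.0%) below a mean of 100 raw counts, beside 256 of the 503 (50.9%). Their mean raw counts ran from 11.4 to 314.5 (median 29.7) on the high side and from 10.2 to 1412 (median 68.5) on the low side, with a median of 95.7 over the 503. None of the high members and 3 of the low members reached a mean of 1000 counts, which 132 of the 503 did. These means include the Tinaja libraries that chose the members, so the selection bears on them, and nothing is read from the comparison.

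**Figure D4:**
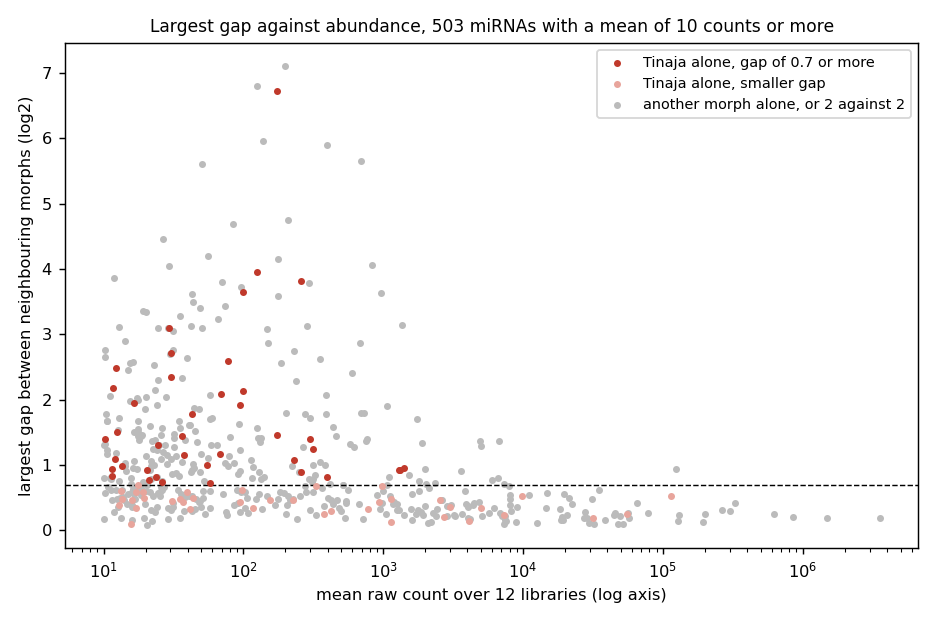
Largest gap between neighbouring morphs (log2 of mean CPM plus 0.5, vertical axis) against the mean raw count over 12 libraries (log axis) for 503 miRNAs; dark red points are the 40 members, light red points are miRNAs in which Tinaja stood alone by less than 0.7 (dashed line), and grey points are all others. Of the 40 members, 28 lie below a mean of 100 counts and 3 above 1000, the highest at 1412, and miR-259 stands apart from the other members with a gap of 6.72.

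The Tinaja libraries were not equally high. Library 3, the shallowest of them, had the highest level of the Tinaja libraries in 13 of the 20 high members and in 10 of the 18 low members with any Tinaja read. It was also the highest in 305 of the 491 miRNAs of the whole list that had a mean raw count of 10 or more and a Tinaja read. Its median deviation from the Tinaja mean was 0.19 on the log2 scale in the high members, 0.13 in the low members, and 0.14 over the 503, against −0.22, −0.07, and −0.11 in library 2. The TMM factors used in the tests were 1.136 for library 3 and 0.937 for library 2. With TMM or RLE library sizes in place of column totals, all 40 members stayed in the set. Without library 3, and with the same 503 miRNAs kept, 38 stayed. Under each of these 3 settings the gaps of the 32 miRNAs described singly moved by less than the spread between libraries. That spread includes library 3, and leaving out 1 of 3 libraries can hardly shift a mean by more than it. Nothing is therefore read from the gaps without library 3. The levels and ratios printed here were not recomputed. The median coefficient of variation between Tinaja libraries was 19.4% in the high members. It was 25.5% in the 18 low members with a Tinaja read, beside 17.8% over the 491. On the low side some values rest on few reads, as in astmex-miR-407 and astmex-miR-514, at 173% with 1 Tinaja read each.

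The 3 Tinaja libraries lay outside the range of the other 9 in 39 of the 40 members, 19 above and 20 below. Over the 503 miRNAs, 11.5% had all Tinaja libraries above the other 9 and 8.95% had them all below. With TMM-adjusted library sizes, an alternative added after seeing the data, 39 members again lay outside the other 9, and the shares over the 503 miRNAs were 10.9% above and 10.7% below. Since the rule selected members for a separate Tinaja mean, nothing is read from the higher count among them. In one fit of all 12 libraries with edgeR's quasi-likelihood test, a miRNA was called if its fold change was 2 or more and its p, adjusted by Benjamini−Hochberg, lay under 0.05. Against surface fish, 18 high members were called higher and 18 low members lower in Tinaja, where 14.1% and 14.6% of all 683 miRNAs were called higher and lower. Against Pachón the numbers were 18 and 16, with 10.7% and 14.2% of all miRNAs called. Against Molino all 20 high members were called higher and all 20 low members lower, with 14.6% and 28.1% of all miRNAs called. The rule used these same comparisons, which also share the Tinaja libraries, so the counts support nothing beyond the selection.

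The median log2 fold change of the high members was 2.05 against surface fish, 2.11 against Pachón, and 1.65 against Molino, and that of the low members was −2.46, −1.96, and −2.59. Over all 683 miRNAs the medians were 0, −0.05, and −0.15. Of the 40 members, 17 high and 16 low ones were called against all 3 morphs, as were 4.10% and 4.54% of all miRNAs in the higher and the lower direction. The 7 that were not called throughout were astmex-miR-119, miR-156, and miR-346 on the high side and astmex-miR-207, miR-208, miR-223, and miR-292 on the low side. astmex-miR-119, miR-223, and miR-292 missed the rule against more than one morph. astmex-miR-156 missed it against surface fish, and astmex-miR-346, miR-207, and miR-208 missed it against Pachón. Of these, astmex-miR-207 and miR-208 cannot be taken as separate measurements. Except for astmex-miR-156, which missed both limits, each miss was of the fold change alone. With the adjusted p alone, 39, 40, and 40 members were called against surface fish, Pachón, and Molino. Of all 683 miRNAs, 331, 313, and 434 were then called.

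Membership was recomputed with each of the 12 libraries left out in turn, keeping the same 503 miRNAs. Of the 40 members, 34 stayed in the set in all 12 cases, 16 of the high and 18 of the low ones. astmex-miR-346 left the set without Tinaja library 1, Tinaja library 3, Pachón library 2, Molino library 3, surface fish library 1, or surface fish library 3. astmex-miR-292 left it without Tinaja library 1, Tinaja library 3, Pachón library 1, Pachón library 2, or surface fish library 1. astmex-miR-156 left it without Tinaja library 1 or surface fish library 2, astmex-miR-503 without Tinaja library 1 or Pachón library 2, astmex-miR-431 without Pachón library 1, and astmex-miR-399 without surface fish library 3. Each of the 6 had a gap under 1. When the minimum mean count was also recomputed over the remaining libraries, 30 members stayed in all 12 cases, 13 of the high and 17 of the low ones. astmex-miR-414, astmex-miR-514, astmex-miR-525, and astmex-miR-531 were then lost too, because their mean fell under 10 counts. The fewest members, 33, were kept without Tinaja library 1.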

How the data were processed

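Small RNA under the labels' size limit was isolated with the mirVana kit, libraries were made with the TruSeq Small RNA kit, and single reads were sequenced. According to the paper's methods, the authors trimmed adapters with Cutadapt (2.5 in the submitters' processing notes), removed reads on other RNA classes, called miRNAs with miRDeep2 from all reads together, collapsed identical ones, and counted each library on the precursors. The values they deposited are raw counts, whole numbers without normalization, for 683 miRNAs in 12 libraries. Replicates were not pooled. One genome and one set of hairpins served all morphs, so a sequence change in a morph could lower its counts; this was not tested.

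The members and lists were chosen with earlier results of these data known. CPM values and gaps were computed in Python 3.11.15. Tests were run in R 4.3.3 with edgeR 4.0.16 (TMM factors, one mean per morph, glmQLFit and glmQLFTest, no low-count filter), adjusted over all 683 miRNAs. Counts were simulated with the other morphs alike and 200 of 683 miRNAs changed 4-fold in Tinaja. Of these 200, 86.5% were called against surface fish, 88.5% against Pachón, and 87.5% against Molino. Among the unchanged miRNAs, 1, 1, and 2 were called. The real morphs also differ among themselves and many gaps are smaller than 4-fold, so these shares need not hold for the members. Replicate libraries differed by more than counting noise (chi-square of 13.1 to 641 per degree of freedom). The highest values were those of Tinaja library 3 with Tinaja library 1 (436) and library 2 (641). Tinaja libraries 1 and 2 gave 47.6, and the highest value in another morph was 208, in Molino.

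The miRNAs described singly on each side were the 8 with the largest gap, the 4 most abundant, all with at most 3 counts in each Tinaja library or in each other library, and the 2 on either side of the gap threshold. Alternatives were other library-size factors, added CPM, count minimums, gap thresholds, tests (among them DESeq2 1.42.0), a replicate block, and leaving out each library.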

Additional observations from a re-analysis of the deposited data

How the results depend on the processing

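With TMM or RLE library sizes in place of column totals, all 40 members stayed in the set, which then held 20 high and 21 low, or 21 high and 20 low miRNAs. With TMM library sizes, an alternative added for this count after seeing the data, the Tinaja libraries again lay outside the other 9 in 39 members, with 10.9% of the 503 miRNAs above and 10.7% below. A minimum mean of 30 raw counts left 10 high members, and a gap of at least 1 left 13 low members. Adding 2 CPM in place of 0.5 gave 16 high and 14 low miRNAs, including 14 and 14 of the original members, and adding 0.1 CPM gave 20 and 24. Leaving out each library, with the minimum mean count recomputed, gave 16 to 21 high and 19 to 24 low miRNAs. The signed gap of the 32 miRNAs described singly kept its direction under each of 17 alternatives. It moved by more than the spread between libraries in 24 of 544 values, all with another amount of CPM added. Thus the size of a gap near 0 CPM depends on that amount. Leaving out 1 library, or taking the median of the 3 libraries, can hardly move a gap by more than that spread. Most of the 544 values come from such settings, so nothing is read from the small share that moved.

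A minimum of 10 counts in every library left 311 miRNAs to test, 17 of them members, because it removes miRNAs near 0 in any morph. Against surface fish, Pachón, and Molino, 45, 43, and 86 of these 311 were called, and 14, 12, and 17 of the 17 members. Without that minimum, 196, 170, and 292 of all 683 miRNAs were called. Without the fold-change rule, 331 miRNAs were called against surface fish and 313 against Pachón. When changes up to 2-fold were made the null hypothesis, the numbers were 128 and 111, with 211 against Molino. Of the 40 members, 29, 27, and 31 were then called against surface fish, Pachón, and Molino. Leaving out each library gave 171 to 197 calls against surface fish, 156 to 170 against Pachón, and 276 to 293 against Molino, and 32 to 38, 32 to 36, and 36 to 40 among the members. With the replicate number as a block, 192, 167, and 287 of the 683 miRNAs and 36, 34, and 40 of the 40 members were called. Nothing in the labels says that equal numbers pair the libraries. Deviations from the morph mean correlated with r of −0.18 to 0.15 (median −0.009) over the 18 pairs with the same number. Over the 36 pairs with different numbers r was −0.19 to 0.29 (median 0.014). The other counts stayed within 1.5 times the reported ones. Scarce members rest on few reads, and depth limits how well their fold changes are known.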
